A study of Mus musculus with 12 samples.

Results

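The genes described here are those whose level was highest after 12 h of doxycycline (dox) in mouse embryonic stem (ES) cells with a dox-inducible Tcf15-E47 construct. They were picked on the measured values. Among probes with a mean log2 value of 7.0 or more over all 12 arrays and with 1 gene name, the score of a probe was its 12 h mean minus the highest of its 0 h, 8 h and 24 h means in Tcf15-E47 cells. The 100 highest scores were taken, and 6 of these probes were left out because the rule sets aside their genes or families (Slc47a1, Tex19.1, Ccno, Socs3, Aurka and Psmd13). That left 94 probes of 86 genes, out of 8660 probes of 6351 genes that could have been chosen and 38561 probes on the array, which name 18524 genes. In 8 genes both of 2 probes were members.

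The study induced Tcf15-E47 and followed expression in time. E14tg2a ES cells, an established line of strain 129/P2, grew in GMEM medium with fetal calf serum and LIF, a cytokine that holds back differentiation. The 6 groups of 2 Illumina arrays comprised the Tcf15-E47 line after 0, 8, 12 or 24 h in dox at 1 µg/mL, and parental control cells after 8 or 0 h. Parental cells at 12 h and 24 h are not analysed here, so dox itself and the construct cannot be told apart at the time that defines these genes. The labels give neither the promoter behind the construct nor whether the line is 1 clone. They also do not say whether the arrays of a group come from separate cultures, so p-values measure only the spread between these samples, which may be technical (n = 2 per group throughout).

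Tcf15, a member of the basic helix-loop-helix (bHLH) class, acts in early mesoderm and in ES cells about to differentiate. Its partner E47 comes from the gene Tcf3 and pairs with many bHLH factors. Dimers of the family bind short DNA motifs of the form CANNTG, called E-boxes, and Id proteins block them. A gene that is high at 1 intermediate time and back at its start later has a transient course, which is the course the rule selects.

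The arrays had median signals between 88.98 and 103.07 units, and 30.7% to 34.7% of probes were detected (detection p under 0.01). The 12 h arrays had 30.7% and 33.0%. All 94 member probes were detected on all 12 arrays. All 8 measured ES cell markers, Pou5f1, Nanog and Sox2 among them, were also detected on every array, with a mean log2 level of 10.57 at 12 h, against 10.75 at 0 h, in Tcf15-E47 cells. Of markers of other cell types, 5 of 11 for primitive endoderm (Amn, Col4a1, Col4a2, Dab2 and Lama1), 3 of 9 for neural progenitors (Elavl3, Map2 and Sox11), 1 of 8 for trophoblast (Tfap2c), 1 of 10 for fibroblasts (Thy1) and 0 of 8 for early mesoderm were detected on every array. The mean level of the primitive endoderm list was 6.84 at 12 h, against 6.95 at 0 h, in Tcf15-E47 cells, and that of the neural progenitor list 6.99, against 7.09. The Tcf15 probe averaged 10.02 at 12 h, against 10.06 at 0 h. The brighter Tcf3 probe read 6.77 and 6.81 at 0 h and 7.19 and 7.39 at 8 h in Tcf15-E47 cells. It read 7.37 and 7.41 at 12 h and 7.04 and 7.28 at 24 h. The other Tcf3 probe averaged 6.74 at 0 h, 7.24 at 8 h, 7.09 at 12 h and 7.13 at 24 h. Whether any of these probes lies in the construct is not known. Fewer cells that express a gene and less RNA per cell cannot be told apart in these bulk samples.

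The peak was small and brief. Over the 94 probes the 12 h mean exceeded the 0 h mean by a median of 0.33 log2 units (range 0.24 to 0.58), a ratio of 1.26 (1.18 to 1.50) on values without background subtraction. The median difference was 0.32 for 12 h minus 8 h and −0.30 for 24 h minus 12 h. These values chose the genes and are given as a description. At 8 h minus 0 h the median was 0.03, with 63 probes above 0 and 31 below, and at 24 h minus 0 h it was 0.03, with 58 above and 36 below. Both 12 h arrays lay above the other 6 Tcf15-E47 arrays for 94 of 94 probes, against 12.8% of the 8660 probes, a count that the rule itself favours. The distance between the lower 12 h array and the highest other array was 0.01 to 0.41, with a median of 0.18, and Msmo1, an enzyme of sterol synthesis, had the least. The 12 h arrays differed from each other by a median of 0.07 and at most 0.22, and replicate 1 was the higher for 67 probes.

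**Figure D1:**
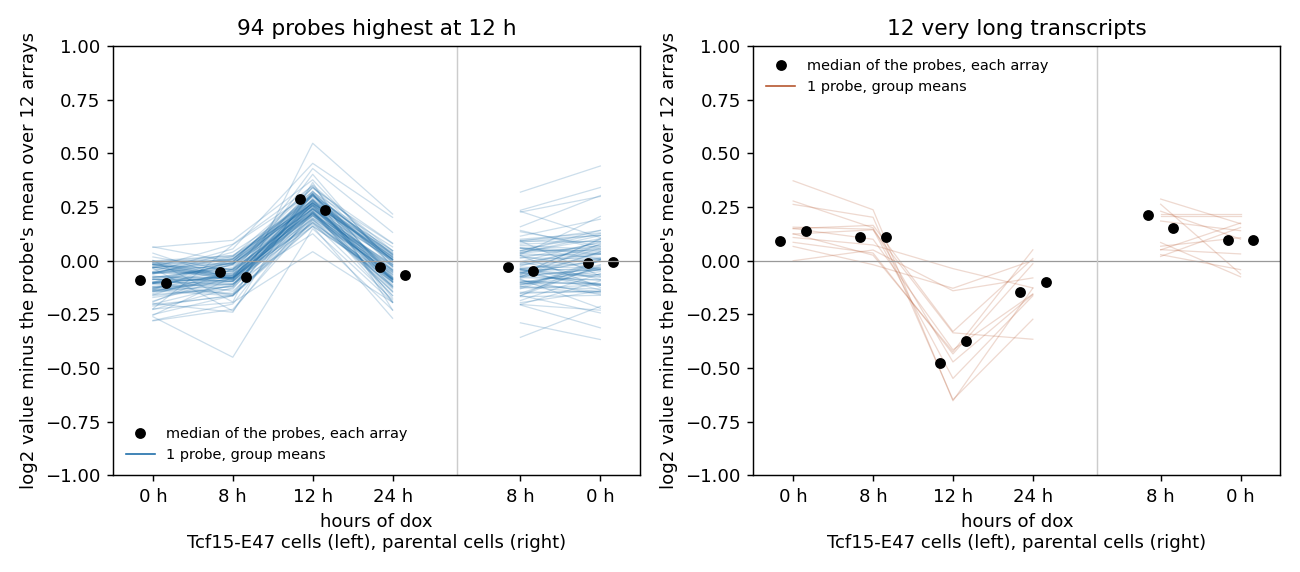
Left, the 94 member probes, and right, the 12 measured genes of a separate list of long nuclear and very long transcripts. Each value is the log2 value minus the mean of that probe over 12 arrays, by hours of dox. Tcf15-E47 cells are left of the grey line and parental cells (8 h, then 0 h) right of it. Thin lines join the group means of 1 probe and black dots are the median over probes on each array. The member medians are 0.28 and 0.24 on the 12 h arrays and lie between −0.10 and −0.01 on the other 10. The medians of the listed transcripts are −0.47 and −0.38 on the 12 h arrays.

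The score ran from 0.56 to 0.23 with a median of 0.26, and no gap marked its end. Just inside lay Plekhg3 (0.2344), Hus1 (0.2331) and Msmo1 (0.2327), and just outside Mus81 (0.2326), Trpc4ap (0.2325) and Hes6 (0.2322), the last a gene the rule sets aside by name. In the same cells 100 probes reached that limit with a peak at 12 h before any was left out, against 55 with a peak at 24 h, 3 at 8 h and 10 at 0 h. Dips of that depth were counted at 162 probes at 12 h, 68 at 24 h, 4 at 8 h and 16 at 0 h. Of all 8660 probes 33.1% were highest at 12 h.

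The highest score belonged to Txnip, an alpha-arrestin that binds thioredoxin and holds back glucose uptake, and whose transcription follows glucose through the Mondo and Mlx factors. Its first probe read 8.46 and 8.57 at 0 h, 8.52 and 8.43 at 8 h, 9.18 and 8.98 at 12 h and 8.52 and 8.44 at 24 h in Tcf15-E47 cells. The same probe read 8.80 and 8.85 at 8 h, against 8.80 and 9.02 at 0 h, in parental cells. The 12 h arrays thus stood 0.41 above every other Tcf15-E47 array, but overlapped the parental arrays. The second Txnip probe repeated the course at a lower level, with 7.77 and 7.78 at 0 h, 7.79 and 7.81 at 8 h, 8.29 and 8.20 at 12 h and 7.79 and 7.68 at 24 h. On this probe both 12 h arrays lay above the parental range of 7.94 to 8.17. The 12 h minus 0 h differences were 0.56 and 0.47, ratios of 1.48 and 1.39, and with background correction (neqc) they were 0.68 and 0.67. The 24 h minus 0 h differences were −0.03 and −0.04.

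Arrdc4, the other alpha-arrestin of the array above the level limit, is like Txnip a glucose-responsive gene and had the largest 12 h minus 0 h difference of all members. It read 9.55 and 9.53 at 0 h, 9.71 and 9.54 at 8 h, 10.22 and 10.03 at 12 h and 9.85 and 9.81 at 24 h in Tcf15-E47 cells and 9.55 and 9.45 at 8 h, against 9.47 and 9.64 at 0 h, in parental cells. The difference was 0.58 (ratio 1.50), of which 48.9% was still there at 24 h, unlike Txnip, where −5.6% and −7.8% were. Arrdc4 was named after its values were seen. Of the Mondo and Mlx factors Mlxip was measured above the level limit, with a 12 h minus 0 h difference of 0.04.

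The promoters of these genes and of 2 other leading members are shown. The reasons were that the construct is an E-box binding factor and that Txnip is known for a pair of E-box-like repeats. Of the 2 others, Dctd was picked as the highest-scoring member whose window holds CAGGTG on either strand. The promoters are RefSeq windows of 300 bases on GRCm38.p6, from 250 bases before to 50 after a transcript start. They are written 5′ to 3′ on the strand of the gene. Capitals mark each CANNTG and, in Txnip, both copies of CACGAG with the 5 bases between them.
Txnip chr3:96557707-96558006 (+): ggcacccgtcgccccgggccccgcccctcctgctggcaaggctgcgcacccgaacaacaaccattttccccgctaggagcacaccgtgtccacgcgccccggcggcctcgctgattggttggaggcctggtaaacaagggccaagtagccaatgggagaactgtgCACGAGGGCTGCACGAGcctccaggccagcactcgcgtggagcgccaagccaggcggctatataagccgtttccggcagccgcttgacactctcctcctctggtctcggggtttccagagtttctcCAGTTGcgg
Arrdc4 chr7:68749189-68749488 (-): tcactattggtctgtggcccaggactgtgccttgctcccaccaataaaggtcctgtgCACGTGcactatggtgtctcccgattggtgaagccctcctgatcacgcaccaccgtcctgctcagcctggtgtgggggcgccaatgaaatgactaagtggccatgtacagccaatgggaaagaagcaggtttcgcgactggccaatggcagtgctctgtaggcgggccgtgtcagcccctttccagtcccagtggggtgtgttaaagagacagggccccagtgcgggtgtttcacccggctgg
Dctd chr8:48109708-48110007 (+): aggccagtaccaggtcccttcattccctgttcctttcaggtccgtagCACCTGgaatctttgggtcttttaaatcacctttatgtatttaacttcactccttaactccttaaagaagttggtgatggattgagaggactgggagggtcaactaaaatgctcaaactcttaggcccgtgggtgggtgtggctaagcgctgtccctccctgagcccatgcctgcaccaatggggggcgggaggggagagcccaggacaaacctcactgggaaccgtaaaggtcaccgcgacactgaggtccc
Gpx1 chr9:108338830-108339129 (+): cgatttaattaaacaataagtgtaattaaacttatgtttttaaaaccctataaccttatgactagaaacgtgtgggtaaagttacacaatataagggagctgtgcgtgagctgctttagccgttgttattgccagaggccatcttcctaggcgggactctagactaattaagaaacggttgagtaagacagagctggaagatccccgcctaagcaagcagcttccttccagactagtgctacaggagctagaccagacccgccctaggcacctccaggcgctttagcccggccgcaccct
This pair of CACGAG copies with any 5 bases between them, looked for on both strands after the data were seen, was found in the Txnip window and in no other of 27025 windows, 1 per gene. The Arrdc4 window held CACGTG, a symmetrical E-box. In Dctd the match it was picked for was CACCTG, the reverse strand of CAGGTG, and the Gpx1 window had no CANNTG. The Dctd window lies inside the listed span of its gene, from 48099092 to 48141667 on chromosome 8.

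Over all members, the share of windows with CANNTG lay between that of measured genes and that of all genes. A window was listed for 71 of the 86 genes. CANNTG on either strand was in 66.2% of them, against 60.9% of 5232 windows of genes above the level limit and 72.1% of all 27025 windows. CAGGTG (with CACCTG on the other strand) was in 21.1%, against 16.6% of the windows of genes above the level limit and 5413 of all 27025. CAGCTG was in 12.7%, against 13.2% and 16.1%, and CACGTG in 8.5%, against 11.2% and 7.2%; these 3 are all cases of CANNTG. The median GC content of the windows was 57.0%, against 61.3% and 52.7%. A match is a description of the letters and not a binding site.

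Gpx1 and Naprt, both enzymes, were among the leading genes. Gpx1, the glutathione peroxidase that removes hydrogen peroxide, read 12.92 and 12.83 at 0 h, 12.94 and 12.92 at 8 h, 13.40 and 13.27 at 12 h and 12.84 and 12.90 at 24 h in Tcf15-E47 cells and was the brightest member by its mean. Its 12 h minus 0 h difference was 0.46 (ratio 1.37), and the 12 h arrays also lay above the parental range of 13.06 to 13.21. The probe had returned to 12.84 and 12.90 by 24 h. Naprt, which starts NAD synthesis from nicotinate, read 9.43 and 9.39 at 0 h, 9.49 and 9.42 at 8 h, 9.91 and 9.72 at 12 h and 9.61 and 9.22 at 24 h. Its 24 h arrays lay on both sides of the 0 h values, so its level at 24 h is poorly fixed, and its second probe, with a score of 0.25, gave 8.70 and 8.62 at 12 h, against 8.29 and 8.47 at 0 h.

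Among nucleotide enzymes, Dctd, the deaminase that turns dCMP into dUMP, had nearly equal values on both 12 h arrays. It read 9.74 and 9.69 at 0 h, 9.68 and 9.70 at 8 h, 10.05 and 10.07 at 12 h and 9.73 and 9.62 at 24 h, and its parental arrays read 9.74 to 9.87. Upp1, uridine phosphorylase, read 11.06 and 11.06 at 0 h, 11.05 and 11.09 at 8 h, 11.54 and 11.46 at 12 h and 11.23 and 11.12 at 24 h. Of its 12 h minus 0 h difference 26.6% was still there at 24 h. On the 2 other, brighter Upp1 probes more of it was: they differed by 0.31 and 0.51 for 12 h minus 0 h and by −0.13 and −0.11 for 24 h minus 12 h. Ivd, an enzyme of leucine breakdown, read 8.48 and 8.53 at 12 h, against 8.23 and 8.18 at 0 h, and at 24 h its arrays lay below both 0 h arrays at 8.16 and 8.12. Ddc, the aromatic amino acid decarboxylase, had the same course with 8.52 and 8.45 at 12 h, against 8.10 and 8.11 at 0 h and 8.01 and 8.06 at 24 h.

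Histone genes made up 4 of the 86 members, all on chromosome 13: H2bc6, H2ac11, H3c6 and H4c1, which encode parts of the nucleosome that are made mainly when DNA is copied. H2bc6 read 7.71 and 7.71 at 0 h, 7.86 and 7.79 at 8 h, 8.12 and 8.19 at 12 h and 7.92 and 7.69 at 24 h in Tcf15-E47 cells and 7.87 to 8.02 over the parental arrays. H2ac11 read 10.41 and 10.11 at 0 h, 10.51 and 10.26 at 8 h, 10.74 and 10.73 at 12 h and 10.50 and 10.38 at 24 h, and its 0 h arrays lay as far apart as the 12 h and 24 h means. H3c6 and H4c1 differed by 0.41 and 0.28 between 12 h and 0 h, and their 12 h arrays overlapped the parental ones. Of the 35 other core histone probes above the level limit, a family picked because of these members, 30 were highest at 12 h, and their median 12 h minus 0 h difference was 0.22. Of all probes 33.1% were highest at 12 h. Histone genes are near copies of each other, so 1 transcript may reach several of these probes.

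**Figure D2:**
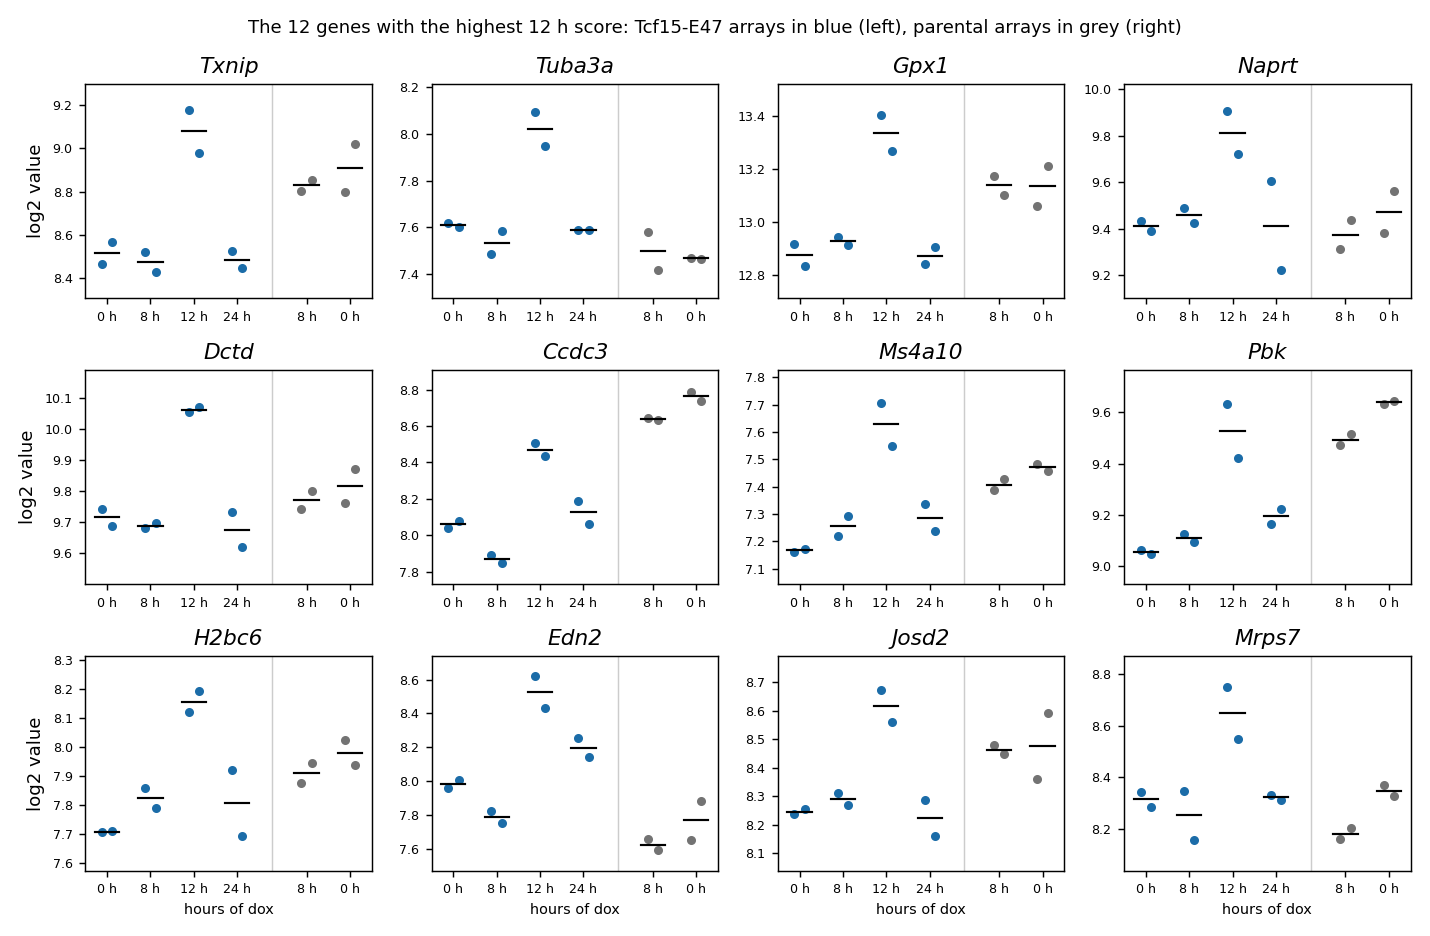
Log2 values on every array for the 12 genes with the highest score, 1 probe per gene, by hours of dox; dots are arrays, bars are the mean of 2, blue is Tcf15-E47 cells and grey is parental cells, and each panel has its own axis that does not start at 0. In every panel both 12 h arrays lie above the other 6 Tcf15-E47 arrays. In Ccdc3 and Pbk both 12 h arrays lie below or at the level of the parental 0 h arrays, and in Edn2 and Tuba3a they lie above all parental arrays.

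Several members act in the secretory pathway. Yif1a, Yif1b and Yipf3, membrane proteins of the Golgi that share a Yip1-type domain, were 3 of the 4 genes of that family above the level limit. The family was picked because of these members, and 86 of all 6351 genes above the limit were members. Yif1a read 8.56 and 8.52 at 0 h, 8.48 and 8.68 at 8 h, 8.94 and 8.88 at 12 h and 8.53 and 8.67 at 24 h on its first probe. Its second probe differed by 0.43 between 12 h and 0 h, and the Yipf3 probes by 0.32 and 0.33. Yif1b differed by 0.32 on its member probe and by 0.36 on its other probe, which had a score of only 0.07. The fourth gene, Yipf1, had a difference of 0.01. Cog8, a subunit of the COG tether of the Golgi, read 9.20 and 9.13 at 0 h, 9.22 and 9.20 at 8 h, 9.62 and 9.56 at 12 h and 9.45 and 9.12 at 24 h, and the other 7 COG probes, none a member, differed by −0.08 to 0.21. Pigo, which attaches ethanolamine phosphate to GPI anchors, read 8.29 and 8.18 at 12 h, against 7.96 and 7.90 at 0 h.

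Xbp1, a transcription factor of the unfolded protein response, was a member with one of the largest differences but a moderate score. It read 9.42 and 9.40 at 0 h, 9.49 and 9.49 at 8 h, 9.97 ± 0.04 (mean and SD, n = 2) at 12 h and 9.75 and 9.64 at 24 h in Tcf15-E47 cells and 9.82 and 9.83 at 8 h, against 9.80 and 9.72 at 0 h, in parental cells. The difference of 0.56 was 51.0% present at 24 h. Sdf2l1, a chaperone cofactor of the endoplasmic reticulum, read 7.89 and 7.90 at 12 h, against 7.63 and 7.54 at 0 h. The other genes of the response that were looked at after seeing these 2 did not share one course: Creld2 probes differed by 0.15 and 0.20, Dnajb9 by 0.11, Hspa5 by 0.05, Sel1l by −0.01 and Herpud1 probes by −0.04 and −0.03.

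Parts of the gene expression machinery were also among the members. Taf12, a subunit of TFIID, read 8.35 and 8.47 at 0 h, 8.52 and 8.59 at 8 h, 8.90 and 8.82 at 12 h and 8.54 and 8.60 at 24 h. Gtf2h4, of TFIIH, read 9.88 and 9.78 at 0 h, 10.06 and 9.80 at 8 h, 10.19 and 10.16 at 12 h and 9.80 and 9.81 at 24 h. Both had a higher 12 h level on both arrays than at any other time, by 0.29 and 0.24 between the means. The other Taf12 probes had scores of 0.02, 0.06 and 0.22. Gemin4, of the SMN complex that loads spliceosomal particles, read 11.07 and 11.03 at 12 h, against 10.78 and 10.72 at 0 h. Mrps7, a protein of the small mitochondrial ribosomal subunit, read 8.34 and 8.29 at 0 h, 8.35 and 8.16 at 8 h, 8.75 and 8.55 at 12 h and 8.33 and 8.31 at 24 h. A brighter Mrps7 probe differed by only 0.14 between 12 h and 0 h, with a score of 0.11. Aimp2, a scaffold of the tRNA synthetase complex, read 9.45 and 9.67 at 0 h, 9.63 and 9.65 at 8 h, 10.01 and 9.91 at 12 h and 9.68 and 9.56 at 24 h. Timm21, of the inner membrane import machinery of mitochondria, differed by 0.36. Pigbos1, a small protein of the outer membrane of mitochondria, differed by 0.41.

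Cell division and DNA repair were represented by single genes. Pbk, a mitotic kinase, read 9.06 and 9.05 at 0 h, 9.13 and 9.09 at 8 h, 9.63 and 9.42 at 12 h and 9.16 and 9.22 at 24 h in Tcf15-E47 cells and 9.47 and 9.52 at 8 h, against 9.63 and 9.65 at 0 h, in parental cells. Both 8 h parental arrays lay below both 0 h ones. At 12 h 1 Tcf15-E47 array lay within the parental range and the other below it. The mean differed from that of untreated parental cells by −0.11 at 12 h and by −0.58 at 0 h. Faap100 and Faap20, partners of the Fanconi anaemia core complex, differed by 0.29 and 0.40 between 12 h and 0 h, and Hus1, of the checkpoint clamp, by 0.32. Of 6 other Fanconi probes above the level limit, a family picked because of these members, 3 were highest at 12 h, against 33.1% of all probes above it. Their median 12 h minus 0 h difference was 0.05. Of 21 measured genes of a DNA repair list, none a member, limma called 0 higher and 1 lower at 12 h against 0 h. Among probes above the level limit 5.05% and 5.15% were called. Tuba3a, an alpha-tubulin of the testis, had 2 member probes, of which the first read 7.62 and 7.60 at 0 h, 7.48 and 7.58 at 8 h, 8.10 and 7.95 at 12 h and 7.59 and 7.59 at 24 h. The second read 7.77 and 7.78 at 0 h, 7.88 and 7.86 at 8 h, 8.23 and 8.15 at 12 h and 7.82 and 7.93 at 24 h, so on each probe both 12 h arrays lay above all others. Tuba3a and Tuba3b are near copies, so the probes may not tell them apart.

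Of the signalling genes, Edn2, an endothelin peptide, dipped before its peak. It read 7.96 and 8.01 at 0 h, 7.82 and 7.75 at 8 h, 8.62 and 8.43 at 12 h and 8.25 and 8.14 at 24 h in Tcf15-E47 cells and 7.66 and 7.59 at 8 h, against 7.65 and 7.88 at 0 h, in parental cells. Both 8 h arrays lay below both 0 h arrays, both 12 h arrays above all others, and the 24 h arrays in between, in Tcf15-E47 cells. Ccdc3, a secreted protein gene, had the same dip with 8.04 and 8.08 at 0 h, 7.89 and 7.85 at 8 h, 8.50 and 8.44 at 12 h and 8.19 and 8.06 at 24 h, but all 8 of its Tcf15-E47 values lay below the parental arrays. Those read 8.65 and 8.63 at 8 h, against 8.79 and 8.74 at 0 h, so both 8 h arrays were below both 0 h arrays in parental cells too (limma adjusted p = 0.894). Esam, an adhesion molecule of endothelium, had it too, with 8 h arrays at 7.64 and 7.72, against 7.86 and 7.90 at 0 h, and 12 h arrays at 8.20 and 8.09. Its parental arrays read 7.94 and 7.95 at 8 h, against 8.00 and 8.25 at 0 h (limma adjusted p = 0.894), again with both 8 h arrays the lower. Gdf3, a TGF-beta family ligand of early embryos, read 10.60 and 10.61 at 12 h, against 10.26 and 10.39 at 0 h. Sgk1, a kinase controlled by serum and hormones, read 11.95 and 11.81 at 0 h, 11.96 and 11.87 at 8 h, 12.26 and 12.13 at 12 h and 11.75 and 11.87 at 24 h, all above the parental range of 11.48 to 11.63. Etv4, an ETS factor downstream of FGF signalling, read 9.69 and 9.70 at 12 h, against 9.47 and 9.38 at 0 h.

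The members differed from each other in how much of the difference was present at 8 h and at 24 h. The next highest time was 24 h for 50 probes, 8 h for 26 and 0 h for 18. A median of 9.1% of the 12 h minus 0 h difference was present at 8 h, and 52 probes had 0 to 25%, 10 had 25 to 50%, 1 had more and 31 were below their 0 h mean. At 24 h a median of 11.8% was present, and 29 probes had 0 to 25%, 24 had 25 to 50%, 5 had 50% or more and 36 were below their 0 h mean. The 5 were Pdpn, Gpr89, Eef1akmt1, Xbp1 and Smagp, named after their values were seen. Pdpn, the membrane protein podoplanin, was also the one with the largest share at 8 h, 54.9%, and read 9.88 and 9.95 at 0 h, 10.15 and 10.28 at 8 h, 10.47 and 10.45 at 12 h and 10.24 and 10.20 at 24 h. These shares divide by the same difference and use the same 0 h arrays, so they are not independent of each other.

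**Figure D3:**
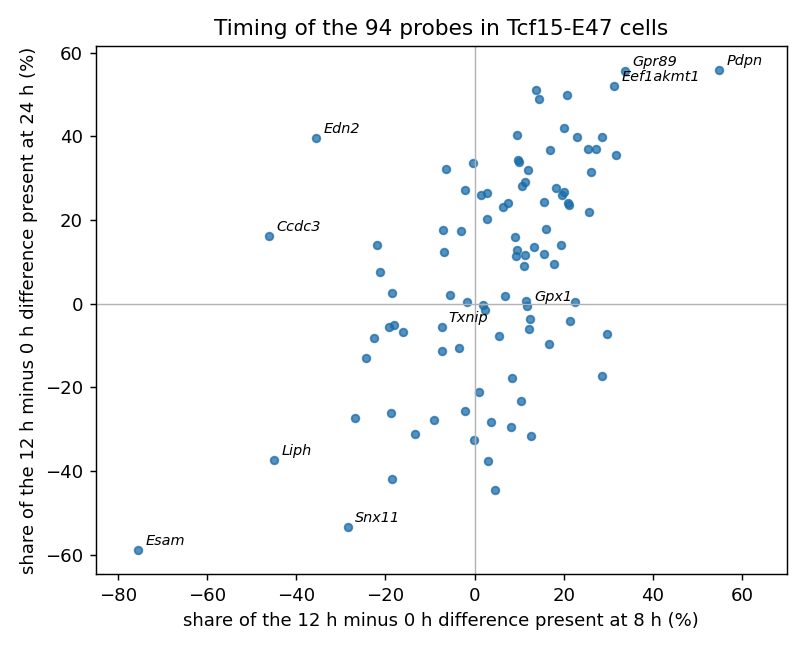
For each of the 94 probes, the share of its 12 h minus 0 h difference that was present at 8 h (horizontal axis, %) and at 24 h (vertical axis, %) in Tcf15-E47 cells, from group means of 2 arrays. Most probes lie within 25% of 0 at 8 h, Pdpn lies at 54.9% and 55.9%, and Esam at −75.5% and −58.9%.

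The parental cells gave the one comparison that the selection did not use, the effect of 8 h of dox without the construct. No member passed the test there: limma called 0 of 94, and 0% of all 38561 probes, at an adjusted p under 0.05. The lowest adjusted p of a member was 0.854 (Gtsf1l, limma with Benjamini-Hochberg adjustment over all probes), and 8 members had an unadjusted p under 0.05, which is 8.51% against 5.47% of all probes. The parental 8 h minus 0 h difference over the members had a median of −0.03, with 38 probes above 0 and 56 below, a range of −0.18 to 0.16 and a median standard error of 0.06. The median over the 8660 probes was near 0 at −0.002. Esam (−0.18), Snx11 (−0.17) and Mrps7 (−0.17) were furthest below 0, and Acp6 (0.16), Pigbos1 (0.15) and Sftpd (0.14) furthest above. In Tcf15-E47 cells the median was 0.03 at 8 h minus 0 h and 0.33 at 12 h minus 0 h. With median-centred signals the parental median was 0.005, so its sign depends on the scaling.

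The members were also set against untreated parental cells. The Tcf15-E47 minus parental difference at 0 h had a median of −0.08, with 31 probes above 0 and 63 below, against a median of −0.001 over the 8660 probes. The rule used the 0 h, 12 h and 24 h Tcf15-E47 arrays and favours low values at 0 h and 24 h and high ones at 12 h, so these differences are descriptions that support nothing. At 12 h the difference from untreated parental cells was 0.28, with 90 probes above 0, and at 24 h it was −0.04, with 39 above. Ccdc3, Pbk, Exoc3l and Chmp7 were the 4 that stayed below the untreated parental mean at 12 h. Both 12 h arrays lay above all 4 parental arrays for 75 of 94 probes, against 25.5% of the 8660 probes, a count that selection on the 12 h arrays favours. Smagp, a small membrane protein, had the largest distance at 12 h, 0.82, and had already differed by 0.32 before dox. These 3 differences share the untreated parental arrays.

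**Figure D4:**
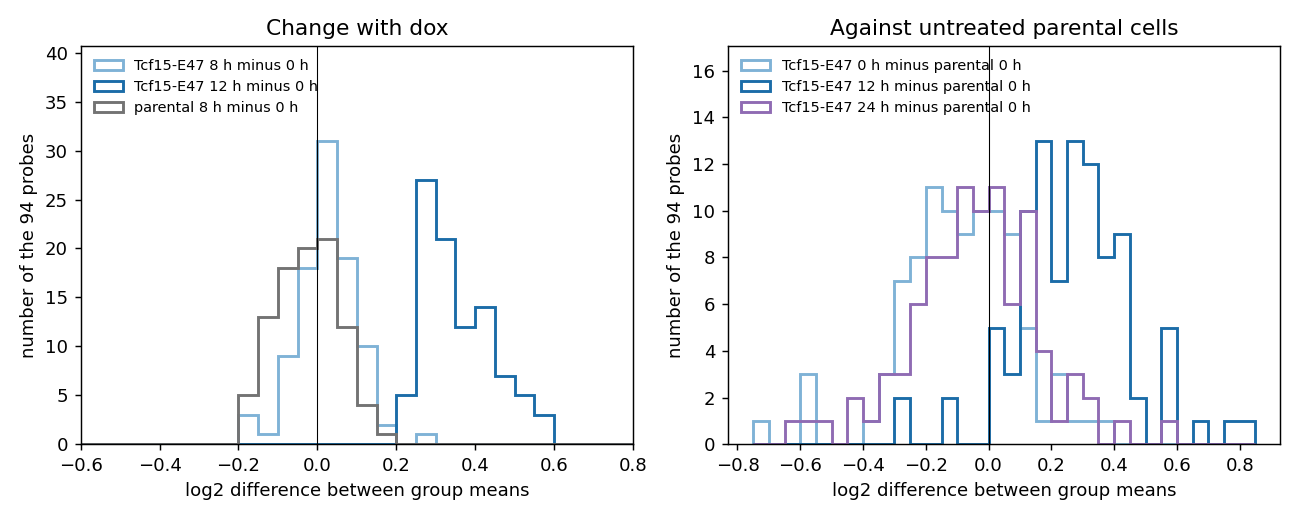
Histograms of log2 differences of group means over the 94 probes, in steps of 0.05. Left, changes with dox: the parental 8 h response lies between −0.18 and 0.16 and the Tcf15-E47 12 h differences, which chose the probes, between 0.24 and 0.58. Right, Tcf15-E47 cells at 0, 12 and 24 h minus untreated parental cells, with medians of −0.08, 0.28 and −0.04.

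Probes of the same genes that had not been chosen gave a further reading, although from the same RNA. The array held 66 other probes for 38 of the 86 genes, of which 34 probes of 25 genes reached the level limit. All 34 were highest at 12 h, where 33.1% of all probes were, with a median score of 0.14 (0.02 to 0.23). Being highest at 12 h, all 34 were by definition higher at 12 h than at 0 h and lower at 24 h than at 12 h. Their genes were chosen for that course on the same arrays, so these counts are a description. The other Tuba3a probes had scores of 0.22 and 0.06 and the other H2bc6 probe 0.16. The scores of members were chosen to be high, so lower ones in their other probes follow from the selection.

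Lists of pathway genes held 8 of the 86 member genes, beside 769 other genes of the 6351 that could have been chosen. Of 44 lists, 7 held a member and 1 held more than 1, the general transcription factors with Taf12 and Gtf2h4. The lists are partial: the histone list held 1 of the 4 histone members, and the mitochondrial import list did not hold Timm21. Without members the lists had 769 measured genes. For 12 h against 0 h, limma called 32 of these higher and 44 lower, beside 1.36% and 1.42% of all probes and 5.05% and 5.15% of those above the level limit. For 12 h against 8 h it called 21 higher and 35 lower (all probes 0.77% and 0.96%), and for 24 h against 12 h 16 higher and 7 lower (0.376% and 0.412%). Shares over all probes include those below the level limit, which the list genes exclude. The shares above the limit are not given for these later comparisons, so an excess among list genes cannot be read from them. Leaving out any 1 of the arrays compared cut the calls to 6 to 12 higher and 16 to 25 lower for 12 h against 0 h, to 2 to 6 and 12 to 19 for 12 h against 8 h, and to 1 to 10 and 0 to 5 for 24 h against 12 h.

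Among the lists that held a member, other histone genes were called in both directions. Of 21, 4 were called higher at 12 h than at 0 h and 1 lower, with a median difference of 0.14. H3c4 rose by 0.33 (adjusted p = 0.00338, limma), H2bc7 by 0.43 (adjusted p = 0.0133), H2bc21 by 0.36 and H2bc12 by 0.25, while Macroh2a1, a histone variant of silent chromatin, fell by 0.26. None of the 21 passed for 24 h against 12 h, where limma called 0 and the median was −0.07. Of 66 other mitochondrial ribosome genes limma called 6 higher and 1 lower at 12 h against 0 h, with a median of 0.08. Mrpl1 rose by 0.31 and Mrpl9 fell by 0.33.

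In the other lists with a member few genes passed the test. Of 24 other redox genes limma called 0 higher and 2 lower at 12 h against 0 h. Sod2, the mitochondrial superoxide dismutase, fell by 0.48 (adjusted p = 0.017, limma) and Hmox1, haem oxygenase, by 0.46 (adjusted p = 0.0263). The member Gpx1 was 0.46 higher. Of 31 other polymerase and general factor genes limma called 0 higher and 1 lower, Gtf2h1 by 0.18, while 20 of the 31 differences were above 0. Of 8 other FGF and ERK feedback genes limma called 1 higher, while 7 of the 8 differences were above 0. The 1 called was Dusp4, a phosphatase of MAP kinases, with a rise of 0.58 (adjusted p = 0.000457, limma). Dusp4 rose again by 0.28 for 24 h against 12 h, unlike the member Etv4, which was 0.25 lower at 24 h than at 12 h. Of 10 other sterol genes limma called 1 higher, Ebp by 0.26, and of 16 other tRNA synthetase genes it called 0.

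A list of long nuclear and very long transcripts went the other way at the same time. Of its 12 measured genes, none a member, limma called 8 lower and 0 higher at 12 h against 0 h, with a median of −0.53. Against 8 h it called 7 lower, with a median of −0.49. Ahnak, a giant scaffold protein, fell by 1.03 (adjusted p = 0.000266, limma), and Dync1h1, the dynein heavy chain, by 0.71 (adjusted p = 0.000598). For 24 h against 12 h limma called 3 of the 12 higher, and 10 of the 12 differences were above 0. The mean level of the 12 was 7.74 and 7.81 on the 12 h arrays, 8.02 and 8.06 on the 24 h arrays and 8.25 to 8.33 on the other 8. The labels give no measure of RNA quality, and the part of this shift in the 12 h peak was not tested.

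The members were short genes by their median span. The genes of the 86 members spanned a median of 12078 bases of GRCm38.p6 from start to end (quartiles 4849 and 20415), against 20514 bases (8865 and 45880) for the 6347 measured genes with a span. Of 4 equal groups of measured genes from short to long, 33, 31, 12 and 10 genes were members, or 2.08%, 1.95%, 0.76% and 0.63%. Over all measured genes the median 12 h minus 0 h difference was 0.041, 0.035, 0.008 and −0.031 in the same 4 groups, and the median 24 h minus 12 h difference was −0.048, −0.026, 0.002 and 0.036. At 8 h minus 0 h the medians stayed between −0.002 and 0.010. By mean level, members had a median of 8.67 log2 units (7.18 to 13.05), against 8.19 for the 8660 probes.

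**Figure D5:**
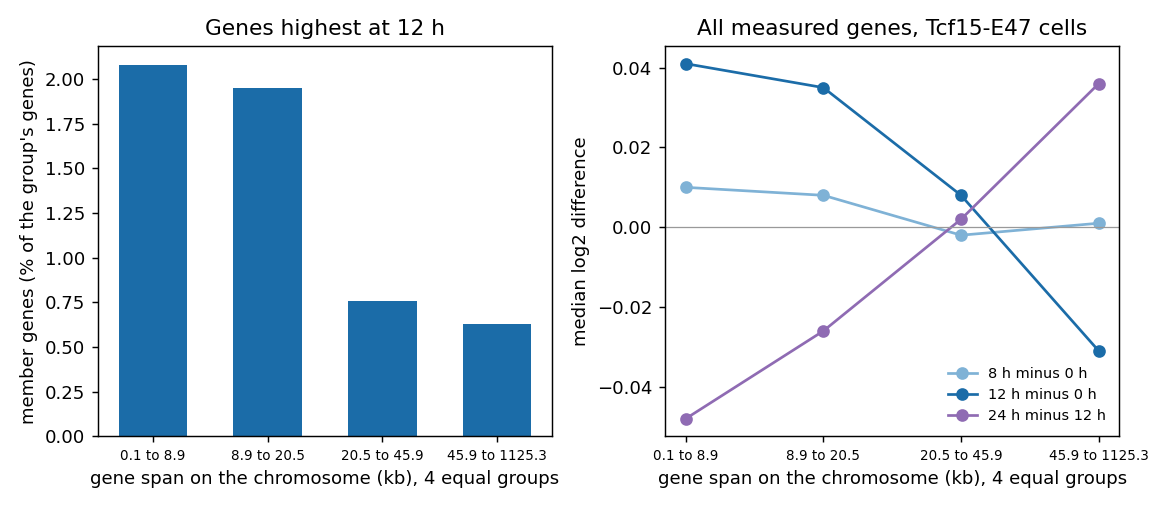
Left, the percentage of measured genes that are members, in 4 equal groups by the length a gene spans on the chromosome (kb); right, the median log2 difference between Tcf15-E47 times over all measured genes in each group. The member share is 2.08% in the shortest and 0.63% in the longest group, and the median 12 h minus 0 h difference is 0.041 in the shortest and −0.031 in the longest.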

How the data were processed

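Per the file headers, the authors deposited a table of mean bead signal intensity, each value beside its detection p-value. They also deposited a table of log2 values, quantile normalized between arrays as its values show, processed with limma per the submitters' processing notes (version not given), and a table of their own comparisons with log2 fold changes and adjusted p-values per the file headers.

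The log2 values were used as deposited, because the rule is defined on them. Group means over 12 arrays were fitted with limma 3.58.1 in R 4.3.3 (two-sided moderated test, 6 residual and 4.99 prior degrees of freedom, Benjamini-Hochberg over 38561 probes), checked on simulated data. The log2 fold changes of the fit equal those the authors deposited to within 5e-08 over 4 comparisons. Fold changes are differences of group means, so this does not check the moderated test. No entry name of the signal table (30854) matches a probe, so 16990 entries were tied to probes by value with Python 3.11.15 and scikit-learn 1.9.0; of 8495 pairs held out, 99.976% were found again. Background correction (neqc, offset 16) and median centring used those signals as alternatives. The annotation gives 1 gene for 32093 probes, several for 16 and none for 6452.

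The members, the lists and the rule for named genes were chosen with earlier results of these data known. That rule names the 25 highest-scoring probes, up to 4 members of each list, the 3 probes on each side of the limit and the 3 largest parental differences each way; every other gene was named after its values were seen. For 12 h, 24 h and 8 h differences between Tcf15-E47 times, members have no test, since these values chose them. The number of arrays limits the precision. Whether replicate numbers pair the samples is not known, and no pairing was used in the main fit. Correlations of deviations between groups ran from −0.16 to 0.25. They were 0.20, 0.23 and 0.25 among the 0 h, 8 h and 24 h Tcf15-E47 groups.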

Additional observations from a re-analysis of the deposited data

Results flagged for a closer look

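In 3 named members both arrays of one line moved one way with 8 h of dox and both arrays of the other line moved the opposite way. Only members given by the rule for named genes were listed. How many of all probes did the same was not counted, so the number 3 is no result about the members. Ms4a10, a membrane-spanning protein gene, differed by 0.09 in Tcf15-E47 cells and by −0.06 in parental cells, and the 8 h responses lay 0.15 apart. Pbk differed by 0.05 in Tcf15-E47 cells and by −0.15 in parental cells, 0.20 apart. Exoc3l, related to a subunit of the exocyst, differed by 0.09 in Tcf15-E47 cells and by −0.07 in parental cells, 0.16 apart. The difference between the lines was not tested for any of them.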

How the results depend on the processing

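Of the 94 members, 57 were again among the chosen probes with background correction (neqc), 63 with median-centred signals, 73 with a level limit of 8.0, 92 with one of 6.5, 70 when single arrays replaced means, 78 with 1 probe per gene, and 55 to 85 when 1 Tcf15-E47 array was left out (55 without 12 h replicate 1 and 59 without 12 h replicate 2). All 94 kept a score above 0 with neqc and with median centring. They also did so without each array in turn, but this was fixed in advance. In all 94 both 12 h arrays lay above the other 6 Tcf15-E47 arrays. The median 12 h minus 0 h difference of 0.331 was 0.425 with neqc and ran from 0.326 to 0.361 without single arrays. With median centring it was 0.461, where the median over the 8660 probes that could have been chosen was 0.099. The median parental 8 h minus 0 h difference of −0.027 was −0.026 with neqc and 0.005 with median centring, and ran from −0.037 to −0.012 without single arrays. The number of members called in parental cells was 0 under every setting, the replicate block, the filter and the authors' deposited table included; 8 had an unadjusted p under 0.05 in the fit to all 12 arrays.

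Among other list genes, the 32 higher and 44 lower at 12 h against 0 h became 66 and 83 when only the arrays compared were fitted, and 6 to 12 and 16 to 25 without single arrays. At 12 h against 8 h the 21 higher became 39 with only the arrays compared and 7 with trend and robust moderation, and single arrays left 2 to 6 higher and 12 to 19 lower, against 35 lower with all. At 24 h against 12 h the 16 higher and 7 lower became 6 and 2 with only the arrays compared, the 7 lower became 2 with trend and robust moderation, and single arrays left 1 to 10 higher and 0 to 5 lower. A left-out array leaves its group with 1, assumed to vary like the others. With the replicate numbers as a block the calls were 31 and 45 for 12 h against 0 h. Apart from the effect of fewer arrays, the cause of these changes was not tested. Signals near background limit the dimmer members.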
